A study of Rattus norvegicus with 35 samples.

Results

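The 9 genes described here encode the enzymes that turn oxidosqualene into cholesterol: Lss, Cyp51, Tm7sf2, Msmo1, Nsdhl, Hsd17b7, Ebp, Sc5d and Dhcr7. They were taken by name from the annotation of the array, which assigned 15 of 31099 probe sets to these genes alone. All 15 passed the filter on dim signals, so all 9 genes were among the 10490 genes tested. The cultures were primary hepatocytes of the rat, that is, liver cells used without becoming a cell line, treated for 72 h through their medium. Each triazole fungicide (myclobutanil, propiconazole, triadimefon) was given at 10, 30 and 100 uM. The reference inducers were phenobarbital (PB, 200 uM) and PCN (30 uM), and controls received 0.1% DMSO, the vehicle. Every group had 3 arrays, labelled Rs256, Rs293 and Rs304, except PCN, which had only Rs293 and Rs304. The series describes these as biological replicates, and the labels do not say what an Rs code marks. Whether the cells of different codes came from different animals is therefore unknown, and p-values measure only the spread between these arrays.

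Cholesterol is made from acetyl-CoA by way of mevalonate and squalene, and the last part of that route begins when Lss closes oxidosqualene into lanosterol. Lanosterol then loses methyl groups, has its double bonds moved and reduced, and becomes cholesterol. Triazole fungicides bind the haem iron of fungal Cyp51, the lanosterol demethylase, and mammals carry the same enzyme. When sterols run low in the endoplasmic reticulum, Scap carries the transcription factor SREBP2 to the Golgi for activation, a step that Insig proteins hold back. SREBP2 works with the factors NF-Y and Sp1 at the promoters of sterol genes.

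Levels are the deposited log-like scores after quantile normalization, called units below. The base of the scale is not given in the sources used here. If the manufacturer's control transcripts bioC, bioD and cre were added at their standard concentrations, a doubling corresponded to 0.47 units (SD 0.02, n = 35 arrays). Differences are given in units and not as folds, and levels of different probe sets are compared only to choose the brightest of a gene. A gene was called when its limma p, adjusted by Benjamini and Hochberg over all genes tested in that comparison, lay below 0.05. All 9 measured hepatocyte markers lay above the array median in all 35 arrays, whereas 0 of 5 endothelial markers passed the filter. Of the markers of other liver cells, 3 of 5 for cholangiocytes, 4 of 6 for stellate cells and 3 of 5 for macrophages passed. Epcam (cholangiocyte) and Acta2 (stellate cell) lay above the median in all 35 arrays. In bulk samples such as these, fewer cells of a type and less RNA per cell cannot be told apart.

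Propiconazole at 100 uM raised 6 of the 9 genes: Lss, Cyp51, Tm7sf2, Msmo1, Ebp and Sc5d. The share of all genes called in that comparison was 12%. The rises lay between 0.44 and 0.53 units, against a median change of 0.0066 over all genes tested. Nsdhl, Hsd17b7 and Dhcr7, which act in the middle and at the end of the route, were not called. Myclobutanil at 100 uM raised 3 genes, Cyp51, Ebp and Sc5d, where 1.21% of all genes were called. Triadimefon at 100 uM raised 2 genes, Ebp and Sc5d, where 1.83% of all genes were called. Each treatment was compared with the same 3 DMSO arrays, so these counts are not independent of each other.

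The Rs codes parted the arrays, and with the code as a block in the fit more genes passed. For propiconazole at 100 uM the block kept the 6 rises and added a fall of Dhcr7 (29.3% of all genes called), which was not called with the code as a random block (adjusted p = 0.088). For myclobutanil it gave 6 rises, those of Lss, Cyp51, Tm7sf2, Msmo1, Ebp and Sc5d (9.92% of all genes called). For triadimefon it gave 5, the same genes without Msmo1 (11.8% of all genes called). The counts also rested on the quantile normalization: on the values as deposited, 0 of the 9 genes were called in any of these 3 comparisons. With both the deposited values and the block, Lss, Tm7sf2, Ebp and Sc5d were called for propiconazole, and Lss and Tm7sf2 for each of the other triazoles. The shares of all genes called on the deposited values, with or without the block, are not given here. Under both settings Cyp51 was not called for propiconazole (adjusted p = 0.344 as deposited and adjusted p = 0.209 with the block added), at a change of 0.47.

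**Figure D1:**
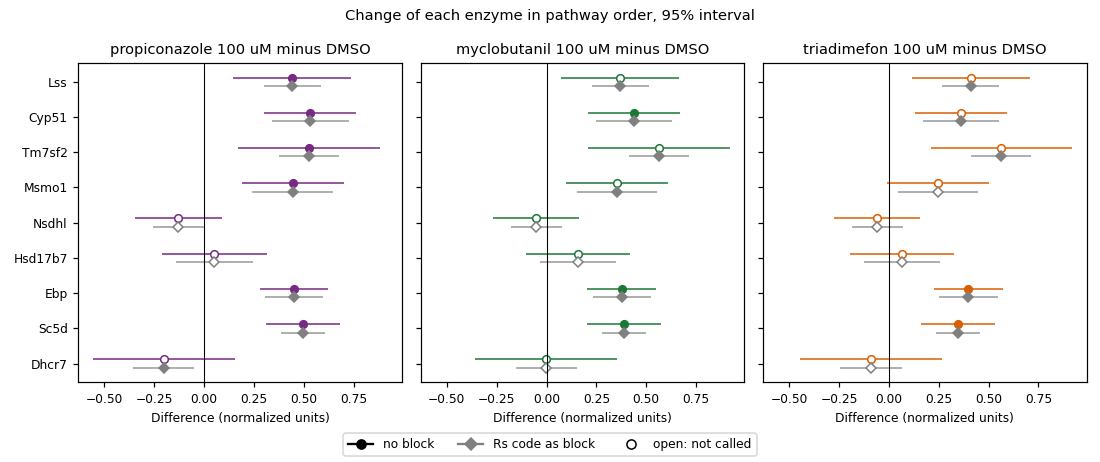
Difference between 100 uM of each triazole and DMSO for the 9 enzymes in pathway order, in normalized units (x axis) with 95% intervals from the limma fit. Circles are the fit without a block, diamonds the fit with the Rs code as block, and open symbols were not called. Lss, Cyp51, Tm7sf2, Msmo1, Ebp and Sc5d lie to the right of 0 in all 3 panels, while Nsdhl, Hsd17b7 and Dhcr7 lie near or below it.

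The gene starts offer a view of what the members that moved together share. RefSeq promoter windows of the rat assembly GRCr8, 250 bases before to 50 bases after the start, were matched for all 9 genes. They were searched on both strands for CCAAT (the NF-Y box), GGGCGG (the Sp1 box) and TCACNCCAC (a sterol regulatory element). The windows of Cyp51 and Msmo1, which rose, and of Nsdhl and Dhcr7, which were not called, are printed below. They lie at chr4:30991443-30991742 (plus strand, Cyp51), chr16:29746863-29747162 (plus strand, Msmo1), chrX:155817110-155817409 (plus strand, Nsdhl) and chr1:208444184-208444483 (plus strand, Dhcr7). Capitals mark CCAAT or GGGCGG, or their reverse complements ATTGG and CCGCCC.
Cyp51: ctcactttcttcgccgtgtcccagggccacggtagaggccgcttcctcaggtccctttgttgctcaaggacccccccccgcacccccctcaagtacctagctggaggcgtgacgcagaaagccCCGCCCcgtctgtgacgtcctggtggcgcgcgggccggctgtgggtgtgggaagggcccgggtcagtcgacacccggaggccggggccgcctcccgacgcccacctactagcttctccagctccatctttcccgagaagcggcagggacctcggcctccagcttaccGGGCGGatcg
Msmo1: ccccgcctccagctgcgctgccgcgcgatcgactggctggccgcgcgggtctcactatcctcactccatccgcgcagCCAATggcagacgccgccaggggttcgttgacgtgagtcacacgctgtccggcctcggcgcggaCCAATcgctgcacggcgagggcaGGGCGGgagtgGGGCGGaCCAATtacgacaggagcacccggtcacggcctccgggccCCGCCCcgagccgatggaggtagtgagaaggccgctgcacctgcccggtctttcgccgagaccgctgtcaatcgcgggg
Nsdhl: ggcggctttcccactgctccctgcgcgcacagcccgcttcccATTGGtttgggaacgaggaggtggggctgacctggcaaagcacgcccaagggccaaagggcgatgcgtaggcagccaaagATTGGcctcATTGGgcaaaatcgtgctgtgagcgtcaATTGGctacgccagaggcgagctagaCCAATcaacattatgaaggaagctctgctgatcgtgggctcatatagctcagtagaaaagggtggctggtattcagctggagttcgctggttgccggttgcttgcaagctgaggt
Dhcr7: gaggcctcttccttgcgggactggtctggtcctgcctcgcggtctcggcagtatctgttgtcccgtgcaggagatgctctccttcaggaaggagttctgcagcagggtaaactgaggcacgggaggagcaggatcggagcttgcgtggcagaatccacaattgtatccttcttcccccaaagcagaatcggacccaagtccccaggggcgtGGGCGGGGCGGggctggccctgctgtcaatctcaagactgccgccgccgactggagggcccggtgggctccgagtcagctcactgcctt
CCAAT was found in 7 of the 9 windows (all but Cyp51 and Dhcr7), compared with 37.5% of 33469 promoters. GGGCGG was found in 8 of 9 (all but Nsdhl), compared with 33.1%, and both motifs in 6 of 9, compared with 11.8%. TCACNCCAC was in 0 of 9 and in 1.12% of all promoters. In 6 windows, those of Lss, Tm7sf2, Nsdhl, Hsd17b7, Ebp and Sc5d, a CCAAT read on the minus strand of the window began between -92 and -82 bases from the start, a range chosen after the positions were seen. Of all promoters, 1.31% had one there. Neither CCAAT nor GGGCGG alone separated the genes that rose from those not called. The windows shown above hold 5 CCAAT matches for Nsdhl, which was not called, and 0 for Cyp51, which rose. GGGCGG was found for every gene that rose, and also for Hsd17b7 and Dhcr7. Both motifs were found for Lss, Tm7sf2, Msmo1, Ebp and Sc5d, which rose, and for Hsd17b7, which was not called at the probe set used. The part of these motifs in the rises was not tested.

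Lss, which folds oxidosqualene into lanosterol, is read by the probe sets 1372973_at and 1368086_a_at. On 1372973_at, the brighter and the one used for the gene, DMSO arrays read 0.62, 0.88 and 0.63 in Rs256, Rs293 and Rs304. Propiconazole at 100 uM gave 1.20, 1.38 and 0.88 in the same order. Rs293 was the highest in both groups, and the lowest propiconazole array met the highest DMSO array at 0.88, while within every code the treated array was higher. The rise was 0.44 (SE 0.14, n = 3 and 3, adjusted p = 0.0446). On 1368086_a_at the DMSO values were 0.45, 0.52 and 0.40 and the propiconazole values 1.22, 1.26 and 0.97, which did not overlap. That probe set rose by 0.69 with propiconazole (SE 0.08, adjusted p = 2.78e-06), by 0.40 with myclobutanil (adjusted p = 0.0147) and by 0.42 with triadimefon (adjusted p = 0.00556), in a fit over 17973 probe sets. On 1372973_at the corresponding changes were 0.37 with myclobutanil (adjusted p = 0.296, and adjusted p = 0.00126 with the replicate block) and 0.41 with triadimefon (adjusted p = 0.165, and adjusted p = 0.000324 with the block).

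Cyp51, the enzyme that triazoles were made to block in fungi, stood at 2.18, 2.43 and 2.34 on the 3 DMSO arrays. Propiconazole at 100 uM brought it to 2.99, 2.92 and 2.64. Every propiconazole array lay above every DMSO array, and the within-code differences were 0.81, 0.49 and 0.30. The rise was 0.53 (SE 0.11, adjusted p = 0.00192). Myclobutanil at 100 uM gave 2.61, 2.96 and 2.70, again above all DMSO arrays, and a rise of 0.44 (SE 0.11, adjusted p = 0.0483). Triadimefon at 100 uM gave 2.79, 2.62 and 2.62, also above all DMSO arrays. Its change of 0.36 was not called (SE 0.11, adjusted p = 0.103) but was with the replicate block (adjusted p = 0.0111). The probe set used, 1367979_s_at, carries the manufacturer's suffix for a probe set that can match more than 1 transcript. The other, 1387020_at, rose by 0.52 with propiconazole (SE 0.08, adjusted p = 0.000109) and by 0.36 with myclobutanil (adjusted p = 0.0353), and changed by 0.29 with triadimefon (adjusted p = 0.0716, and adjusted p = 0.0133 with the block).

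Tm7sf2, a reductase that acts on the product of Cyp51, read 1.06, 1.38 and 1.14 with DMSO. It read 1.70, 1.85 and 1.60 with propiconazole at 100 uM, 1.54, 2.07 and 1.66 with myclobutanil and 1.74, 1.89 and 1.64 with triadimefon. No treated array of these 9 fell as low as the highest DMSO array, and Rs293 was the highest code in each of the 4 groups. The rise with propiconazole was 0.52 (SE 0.17, adjusted p = 0.0464). The changes of 0.56 with myclobutanil and 0.56 with triadimefon were not called (adjusted p = 0.132 and adjusted p = 0.0996), and with the block both were (adjusted p = 3.37e-05 and adjusted p = 2.59e-05). Within codes, Tm7sf2 differed from DMSO by 0.63, 0.48 and 0.46 with propiconazole.

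Msmo1, Nsdhl and Hsd17b7 act together to strip further methyl groups from the sterol ring, and they parted company. Msmo1, the oxygenase of the trio, read 2.22, 2.18 and 2.08 with DMSO and 2.85, 2.53 and 2.44 with propiconazole at 100 uM. These groups did not overlap, and the rise was 0.44 (SE 0.12, adjusted p = 0.0185). Myclobutanil at 100 uM changed it by 0.35 (adjusted p = 0.222, and adjusted p = 0.0215 with the block). Triadimefon changed it by 0.25, which was called in neither fit (adjusted p = 0.428 and adjusted p = 0.107 with the block).

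Nsdhl, the dehydrogenase that releases the oxidised carbon, did not rise at either of its probe sets. On 1392988_at, used for the gene, DMSO arrays read 2.18, 2.43 and 2.32 and propiconazole arrays at 100 uM 2.19, 2.15 and 2.20. The difference of -0.13 was not called (SE 0.11, adjusted p = 0.517), and the treated arrays lay within or just below the DMSO range. On 1392604_at the DMSO values were 1.27, 1.55 and 1.35 and the propiconazole values 1.08, 1.06 and 0.81. Here no arrays overlapped, and the level fell by 0.41 (SE 0.10, adjusted p = 0.0081), where 11.3% of all probe sets were called. The same probe set differed by -0.19 with myclobutanil and by -0.17 with triadimefon at 100 uM, and neither was called (adjusted p = 0.599 and adjusted p = 0.553). The shares of all probe sets called in those comparisons were 0.785% and 1.55%. It was lower than DMSO within every code, by 0.19, 0.19 and 0.17 with myclobutanil and by 0.15, 0.24 and 0.13 with triadimefon. With the block neither was called (adjusted p = 0.0569 and adjusted p = 0.066), where 8% and 9.96% of all probe sets were.

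Hsd17b7, the ketone reductase of the trio, gave answers that differed by probe set. On 1389430_at, the brighter, DMSO arrays read 0.67, 0.77 and 0.68 and propiconazole arrays 0.89, 0.85 and 0.53. Rs304 fell below all DMSO arrays there while the other codes lay above, and the change of 0.05 was not called (SE 0.13, adjusted p = 0.878). On 1387233_at the DMSO arrays read 0.58, 0.53 and 0.54 and the propiconazole arrays 1.11, 0.79 and 0.90. That probe set rose with propiconazole by 0.38 (SE 0.06, adjusted p = 8.81e-05), with myclobutanil by 0.34 (adjusted p = 0.0042) and with triadimefon by 0.24 (adjusted p = 0.03). The 2 probe sets correlated at r = 0.54 over 35 arrays after code means were removed. The choice of the brighter probe set therefore decided that Hsd17b7 was counted as not called.

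**Figure D2:**
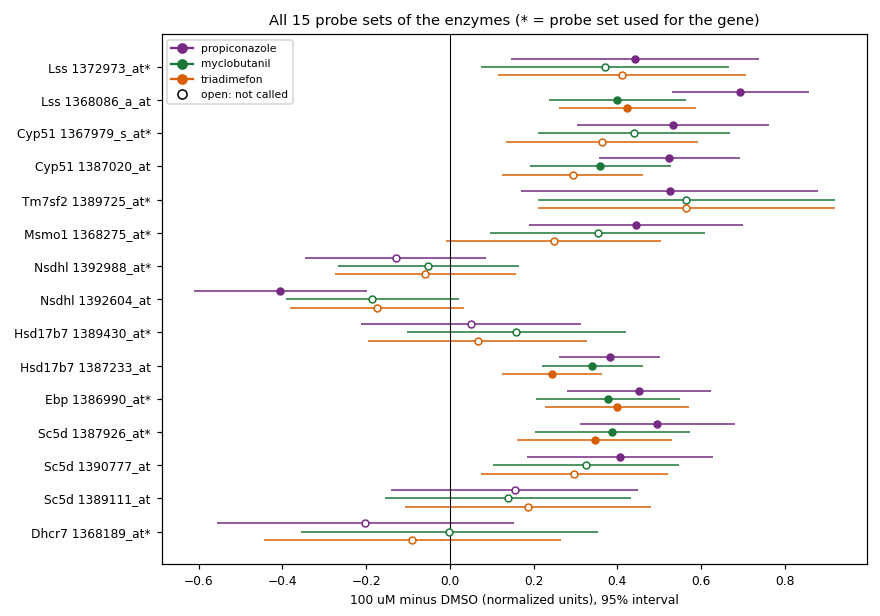
Change at 100 uM against DMSO for all 15 probe sets, in normalized units (x axis) with 95% intervals, coloured by triazole. Filled points were called in the fit over 17973 probe sets without a block, and an asterisk marks the probe set used for the gene. The 2 probe sets of Hsd17b7 part, with 0.05 and 0.38 for propiconazole, and those of Nsdhl lie at -0.13 and -0.41.

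Ebp, the isomerase that shifts a double bond in the sterol ring, had the smallest spread of the 9 genes over the DMSO arrays (SD 0.03). It read 1.37, 1.32 and 1.37 with DMSO and 1.88, 1.66 and 1.87 with propiconazole at 100 uM. Myclobutanil gave 1.81, 1.60 and 1.79, and triadimefon 1.86, 1.77 and 1.63. All 9 treated arrays lay above all DMSO arrays. Ebp was called for all 3 triazoles, with rises of 0.45 (SE 0.08, adjusted p = 0.000561), 0.38 (adjusted p = 0.026) and 0.40 (adjusted p = 0.0118).

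Sc5d, the desaturase that makes the precursor of the last reduction, behaved in the same way at its brightest probe set, 1387926_at. DMSO arrays read 1.99, 1.92 and 1.89, and propiconazole arrays at 100 uM 2.58, 2.33 and 2.39. Myclobutanil gave 2.41, 2.27 and 2.30, and triadimefon 2.47, 2.25 and 2.13, so that no treated array overlapped DMSO. The rises were 0.49 (SE 0.09, adjusted p = 0.000478), 0.39 (adjusted p = 0.0312) and 0.35 (adjusted p = 0.0435). Of the other probe sets, 1390777_at rose by 0.41 with propiconazole (adjusted p = 0.0136). The dimmest, 1389111_at, changed by 0.15 (adjusted p = 0.591, and adjusted p = 0.00692 with the block, where 27.1% of all probe sets were called). With myclobutanil and triadimefon at 100 uM, the mean within-code differences from DMSO were 0.32 and 0.30 on 1390777_at. On 1389111_at they were 0.14 and 0.19, and its arrays overlapped DMSO with each triazole at 100 uM. Whether these differences were called is not given here.

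Dhcr7, the reductase of the final step, was not called for any triazole at 100 uM in the fit without the block. DMSO arrays read 1.81, 2.23 and 1.92, with Rs293 the highest, as in all 12 groups. Propiconazole gave 1.98, 2.29 and 2.13 at 10 uM, 2.02, 2.49 and 2.05 at 30 uM and 1.71, 2.03 and 1.60 at 100 uM. Within every code the 30 uM array was above DMSO and the 100 uM array below it. The difference at 100 uM was -0.20 and was not called without the block (SE 0.17, adjusted p = 0.543). With the Rs code as a fixed block it was (SE 0.07, adjusted p = 0.0421). That call was lost with the code as a random block (SE 0.09, adjusted p = 0.088), and with the fixed block on median-centred values (adjusted p = 0.629) or on the values as deposited (adjusted p = 0.65). Across the groups as a whole its arrays overlapped, with a DMSO mean of 1.99 (SD 0.22) and a propiconazole 100 uM mean of 1.78 (SD 0.22).

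**Figure D3:**
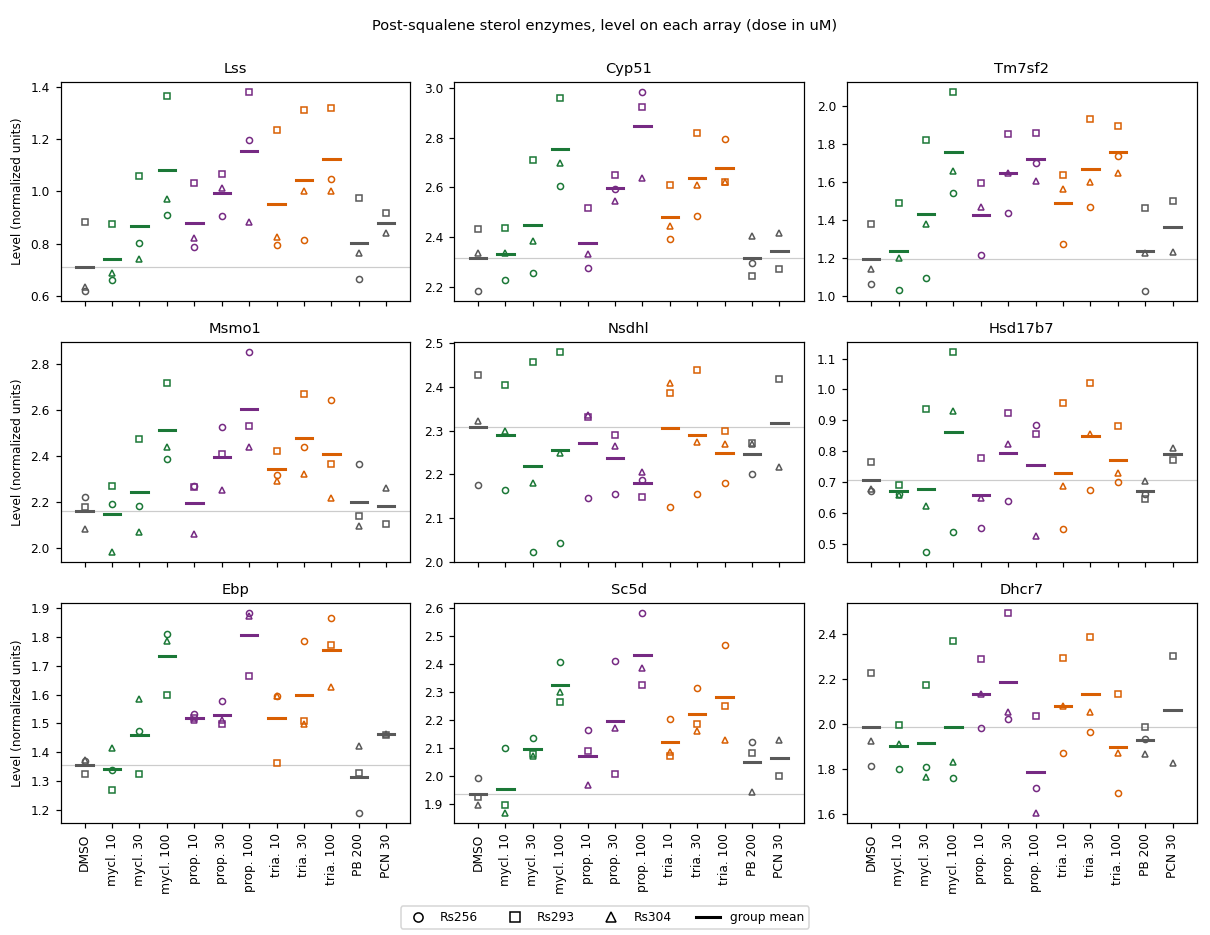
Level of each enzyme on each of the 35 arrays, in normalized units (y axis), by group (x axis, dose in uM). Symbols are the Rs codes, thick bars the group means and the thin line the DMSO mean. Cyp51 stands at 2.18 to 2.43 with DMSO and at 2.64 to 2.99 with propiconazole at 100 uM, while Dhcr7 is highest with propiconazole at 30 uM and lowest at 100 uM.

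Leaving out arrays, in fits without the Rs code as a block, showed which unblocked calls for propiconazole at 100 uM were kept. No such fits were run with the block, where all 6 rises were called over all arrays. The losses below therefore hold for fits that ignore the pairing by code. Without each of the 6 arrays in turn, or without each Rs code, Cyp51, Ebp and Sc5d stayed called in all 9 fits, with adjusted p up to 0.0465, 0.0481 and 0.046. Lss was called in 3 of the 9 (without DMSO Rs293, without propiconazole Rs304 and without the code Rs293), and its adjusted p reached 0.226. Msmo1 was called in 3 of the 9 (without DMSO Rs256, propiconazole Rs293 or propiconazole Rs304), and its adjusted p reached 0.136. Tm7sf2 was called in 2 of the 9 (without DMSO Rs293 and without the code Rs293), and its adjusted p reached 0.378. The number of enzymes called lay between 3 and 5. The shares of all genes called in these fits are not given here. For myclobutanil it fell from 3 to 0 or 1 and for triadimefon from 2 to between 0 and 2. Ebp with myclobutanil was called only without myclobutanil Rs293, and Sc5d only without the code Rs256. Cyp51 with myclobutanil was called in 0 of 9 such fits (adjusted p from 0.0701 to 0.55). With triadimefon, Ebp stayed called in 4 of the 9 (without DMSO Rs256, DMSO Rs304, triadimefon Rs293 or triadimefon Rs304) and Sc5d in 2 (without the code Rs256 and without triadimefon Rs304).

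Values that describe the arrays also differed between groups. The difference between the 3' and 5' control probe sets of Actb, a measure of RNA integrity, lay at 0.744 to 0.810 with DMSO and at 0.570 to 0.725 with propiconazole at 100 uM. The other groups wholly below DMSO were propiconazole at 10 uM (0.632 to 0.656), PCN (0.593 to 0.601) and myclobutanil at 10 uM (0.665 to 0.734). The same difference for Gapdh overlapped, at 0.148 to 0.251 with DMSO and 0.080 to 0.263 with propiconazole at 100 uM. The summed level of 5 macrophage markers lay at -0.64 to -0.05 with DMSO and at -0.00 to 0.57 with propiconazole at 100 uM. Of these markers, Cd68, Clec4f and Csf1r passed the filter, and Cd163 and Ptprc lay below the array median in all 35 arrays. With myclobutanil at 100 uM the macrophage sum overlapped DMSO (-0.58 to 0.31), as did the Actb difference (0.610 to 0.834). Both overlapped DMSO with triadimefon at 100 uM as well (-0.55 to 0.64 and 0.738 to 0.912). The hepatocyte sum overlapped too, at 29.8 to 31.2 with DMSO and 29.4 to 30.9 with propiconazole. The part of these measures in the rises was not tested.

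The dose series asked whether the response grew from 10 to 100 uM within a compound, without the shared DMSO arrays. Over propiconazole doses 4 enzymes rose with log10 dose, where 8.73% of all genes were called. Cyp51 rose by 0.48 units per log10 dose (SE 0.11, adjusted p = 0.00726), Msmo1 by 0.41 (adjusted p = 0.0389), Sc5d by 0.36 (adjusted p = 0.0114) and Ebp by 0.29 (adjusted p = 0.0276). With the replicate block 6 rose, Lss (0.27) and Tm7sf2 (0.29) being the others, and 24.8% of all genes were called. Dhcr7 fell with that block, at -0.36 units per log10 dose (SE 0.07, adjusted p = 0.000833, and adjusted p = 0.233 without the block). With the block this fall was not called on median-centred values (adjusted p = 0.187) or on the values as deposited (adjusted p = 0.204). The second probe set of Nsdhl, 1392604_at, fell by 0.36 (adjusted p = 0.027), where 7.94% of all probe sets were called (22.3% with the block).

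With myclobutanil only Ebp was called for dose, at 0.39 (SE 0.08, adjusted p = 0.0316), where 0.248% of all genes were called. The block gave 6 rises there, those of Lss, Cyp51, Tm7sf2, Msmo1, Ebp and Sc5d, among 6.63% of all genes. Triadimefon gave 0 called enzymes (0.0763% of all genes) and with the block 1, Tm7sf2 at 0.27 (adjusted p = 0.0448, 2.93% of all genes). That call was lost with a random block (adjusted p = 0.109), and with the block on median-centred values (adjusted p = 0.477) or on the values as deposited (adjusted p = 0.526). Counted over the 3 triazoles and 3 codes, Cyp51 stepped up from 10 to 30 and again from 30 to 100 uM in 8 of 9 series. Lss, Tm7sf2, Ebp and Sc5d did so in 7 and Msmo1 in 6. Nsdhl and Hsd17b7 did so in 3 and Dhcr7 in 1. These counts used 1 probe set per gene, and how often all genes stepped up was not counted. On 1387233_at, the other probe set of Hsd17b7, mean within-code differences from DMSO climbed at both steps with each triazole, though not in every series. They were 0.05, 0.11 and 0.38 with propiconazole, 0.03, 0.12 and 0.34 with myclobutanil, and 0.10, 0.17 and 0.24 with triadimefon.

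**Figure D4:**
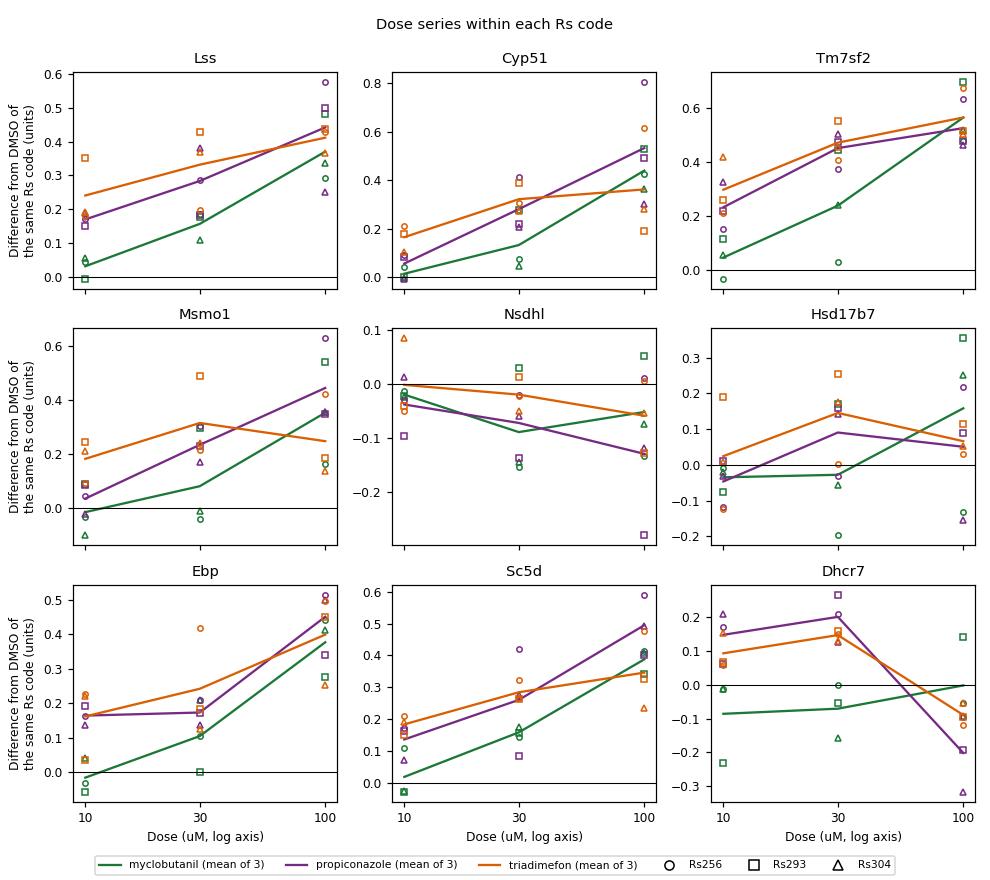
Difference from the DMSO array of the same Rs code (y axis, normalized units) against dose (x axis, uM, log axis), for each enzyme. Points are single arrays, marked by code, and lines the mean of the 3 codes for each triazole. Cyp51 climbs at both steps in 8 of 9 series, whereas Dhcr7 with propiconazole is above 0 at 10 and 30 uM and below 0 at 100 uM.

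At 30 uM no enzyme was called without the block, where the share of all genes called was 0.00953% for myclobutanil, 0.0381% for propiconazole and 0.0286% for triadimefon. Unadjusted p-values under 0.05 over all genes numbered 120, 629 and 508. With the block Lss, Tm7sf2 and Sc5d were called for propiconazole (2.62% of all genes) and for triadimefon (1.05%), and 0 enzymes for myclobutanil (0.0191%). Tm7sf2 rose most, by 0.45 with propiconazole (SE 0.07, adjusted p = 0.00196 with the block) and by 0.47 with triadimefon (adjusted p = 0.00198 with the block). Sc5d rose by 0.26 and 0.28, and Lss by 0.28 and 0.33, in the same fit. Cyp51 at 30 uM read 2.60, 2.65 and 2.55 with propiconazole, above all DMSO arrays, but its change of 0.28 was called in neither fit.

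At 10 uM, and with PB and PCN, none of the 9 enzymes was called in either limma fit. The shares of all genes called without the block were 0% for myclobutanil and triadimefon at 10 uM and 0.00953% for propiconazole at 10 uM, PB and PCN. With the block they were 0.00953%, 0.00953%, 0.0191%, 0.0191% and 0.0286% for myclobutanil, triadimefon, propiconazole, PB and PCN. Unadjusted p-values under 0.05 over all genes without the block numbered 21 for myclobutanil at 10 uM, 99 for propiconazole, 130 for triadimefon, 96 for PB and 187 for PCN. Cyp51 with PB read 2.30, 2.24 and 2.41, within the DMSO range, and its change was -0.0021. PB changed the 9 enzymes by between -0.06 and 0.11, and PCN by between 0.01 and 0.17 over its 2 arrays. That PCN range sets 2 codes against the 3 of DMSO. With the replicate block it ran from -0.05 to 0.18 with 7 of 9 above 0, and the within-code means were -0.04 for Cyp51, -0.06 for Nsdhl and -0.01 for Dhcr7. Triadimefon at 10 uM changed them by a median of 0.17.

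All 3 compounds share the triazole ring; a nitrile is found in myclobutanil, a ketone in triadimefon and a dioxolane ring in propiconazole. The 3 compounds were set against each other at each matched dose, 9 pairs in all, and none of the 9 enzymes was called in any pair, with or without the block. P-values were adjusted over all genes within a pair, and not further over the 9 pairs. At 100 uM, 0.744% of all genes were called between propiconazole and myclobutanil, 0.505% between propiconazole and triadimefon and 0% between triadimefon and myclobutanil. With the block these shares were 7.09%, 4.59% and 0.00953%. At 10 and 30 uM, 0% of all genes were called for any pair in either fit.

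The intervals of these differences show what the arrays could tell apart. For Cyp51 at 100 uM, propiconazole minus myclobutanil was 0.09 (95% interval -0.14 to 0.32) and propiconazole minus triadimefon 0.17 (-0.06 to 0.40). For Tm7sf2 the same differences were -0.04 (-0.39 to 0.32) and -0.04 (-0.39 to 0.32). For Dhcr7 propiconazole minus myclobutanil was -0.20 (-0.56 to 0.15, adjusted p = 0.834), and the fit with the block gave -0.35 to -0.05 (adjusted p = 0.111). These intervals leave room for differences as large as many of the changes against DMSO. At 30 uM all 9 enzymes had higher means with propiconazole and with triadimefon than with myclobutanil, by medians of 0.13 and 0.18. The medians over all genes were 0.00052 and -0.0038. At 10 uM 7 and 9 did, by medians of 0.12 and 0.18, with medians over all genes of 0.00015 and -0.0028. With the block, the 95% interval lay wholly above 0 for 5 of 9 enzymes for triadimefon minus myclobutanil at 10 uM and for 5 at 30 uM. For propiconazole minus myclobutanil it did so for 4 at 10 uM and 2 at 30 uM, and without the block these counts were 1, 0, 1 and 0. In the same order, unadjusted limma p lay under 0.05, in either direction, for 224, 389, 278 and 727 of all 10490 genes with the block. Without the block these numbers were 50, 99, 39 and 220. None of these enzyme differences was called (the lowest adjusted p at these doses was 0.57, with the block).

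Across all 12 groups, Cyp51 was highest with propiconazole at 100 uM (mean 2.85, SD 0.19), followed by myclobutanil at 100 uM (2.76, SD 0.18) and triadimefon at 100 uM (2.68, SD 0.10). Triadimefon and propiconazole at 30 uM came next (2.64 and 2.60), then triadimefon at 10 uM (2.48), myclobutanil at 30 uM (2.45) and propiconazole at 10 uM (2.37). PCN (2.34), myclobutanil at 10 uM (2.33), DMSO (2.32) and PB (2.31) closed the order. Propiconazole at 100 uM was also the highest group for Lss, Msmo1, Ebp and Sc5d, and the lowest for Nsdhl and Dhcr7. Triadimefon at 100 uM was the highest for Tm7sf2, and myclobutanil at 100 uM for Hsd17b7. On the second probe set of Hsd17b7, 1387233_at, propiconazole at 100 uM was the highest (mean 0.93). In each of the 9 enzymes all 11 pairs of neighbours in the order overlapped between arrays, so the order is a ranking of means only.

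Over the 35 arrays, with the mean of each Rs code removed, Lss, Cyp51, Tm7sf2, Msmo1, Ebp and Sc5d correlated with each other at r between 0.62 (Msmo1 and Ebp) and 0.93 (Cyp51 and Msmo1). Hsd17b7, read at 1389430_at, correlated with Cyp51 at 0.66, Nsdhl at -0.02 and Dhcr7 at -0.06. Dhcr7 and Nsdhl correlated with each other at 0.44. The points share arrays, doses and normalization, so these values describe the series and are given without a test. Among all 10490 genes, the 10 most like Cyp51 by this measure were Msmo1 (0.93), Fdps (0.90), Fdft1 (0.89), Acat2 (0.89), Tm7sf2 (0.89), Tprg1l (0.88), Stk10 (0.88), Lss (0.88), Sqle (0.88) and Acss2 (0.87). Sc5d was number 24 in that order, Ebp 285, Hsd17b7 541, Nsdhl 5667 and Dhcr7 5983.

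**Figure D5:**
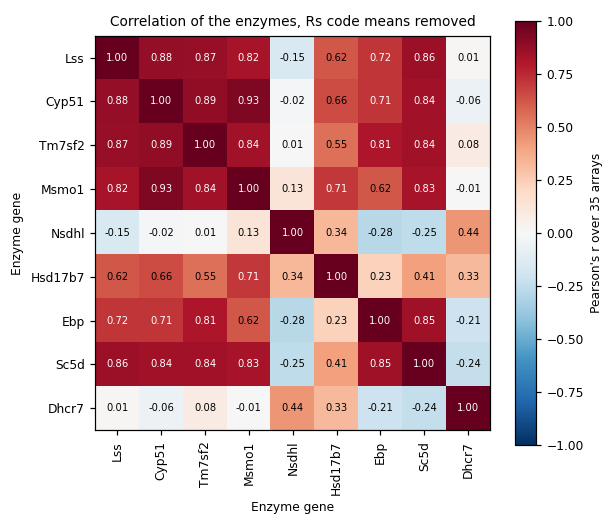
Pearson's r between the levels of each pair of enzymes over 35 arrays after the mean of each Rs code was removed; both axes list the enzymes in pathway order, and the colour runs from -1 (blue) to 1 (red). The block of high values joins Lss, Cyp51, Tm7sf2 and Msmo1 with Ebp and Sc5d, while Nsdhl and Dhcr7 stand at -0.02 and -0.06 against Cyp51.

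The rest of the pathway was read from lists chosen with earlier results of these data known. Of 10 enzymes from acetyl-CoA to squalene epoxide 8 were tested, and 6 of these rose with propiconazole at 100 uM (median 0.41). Acat2, which makes acetoacetyl-CoA, rose by 0.83 (adjusted p = 9.17e-09), Mvd, the mevalonate decarboxylase, by 0.51 (adjusted p = 0.000154), and Pmvk, the kinase before it, by 0.44 (adjusted p = 0.0045). Fdft1, squalene synthase, rose by 0.41, Fdps, which makes farnesyl diphosphate, by 0.40, and Idi1, the isomerase before it, by 0.40. Mvk (0.11) and Sqle (0.27, adjusted p = 0.0584) were not called, and Sqle was with the block (adjusted p = 8.56e-05). With myclobutanil at 100 uM Acat2, Mvd and Fdft1 rose, 3 of 8, and with triadimefon Acat2 and Mvd, 2 of 8. With the block 7 of 8 rose with propiconazole, 7 with myclobutanil and 6 with triadimefon. The share of all genes called in each comparison is that given above for the 9 enzymes.

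Partners of the post-squalene enzymes were read in the same way. With propiconazole at 100 uM, 1 of 7 tested rose: Cyb5b, a cytochrome b5, by 0.40 (adjusted p = 1.06e-05). The share of all genes called there was 12%, so 1 of 7 does not set the partners apart. Lbr, which shares the reductase activity of Tm7sf2, changed by 0.17, Por, the electron donor of Cyp51, by 0.18, and Erg28, a scaffold of the demethylating enzymes, by 0.10, none of them called without the block. Lbr was called with it (adjusted p = 0.0238), where 29.3% of all genes were called. Faxdc2 changed by -0.49 and was called with the block (adjusted p = 2.6e-06) but not without it (adjusted p = 0.494). With myclobutanil and triadimefon at 100 uM, 0 of 7 partners were called without the block, where 1.21% and 1.83% of all genes were. With it, myclobutanil gave rises of Cyb5b (0.16, adjusted p = 0.0233) and Por (0.40, adjusted p = 0.00142) and a fall of Faxdc2 (-0.30, adjusted p = 0.00365). Triadimefon gave rises of Erg28 (0.16, adjusted p = 0.0237) and Por (0.28, adjusted p = 0.0145). The shares of all genes called with the block were 9.92% for myclobutanil and 11.8% for triadimefon.

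Among 8 tested genes of SREBP control and SREBP2 targets outside synthesis, 3 rose with propiconazole at 100 uM. In the unblocked fits 12%, 1.21% and 1.83% of all genes were called for propiconazole, myclobutanil and triadimefon at 100 uM. With the block 29.3%, 9.92% and 11.8% were. Stard4, a sterol carrier, rose by 0.47 (adjusted p = 0.000168), Insig1, the SREBP2 target that retains Scap, by 0.39 (adjusted p = 0.0124) and Scap by 0.23 (adjusted p = 0.00169). Srebf2 itself, which encodes SREBP2, changed by -0.15 and was not called (adjusted p = 0.347). Insig1 also rose with myclobutanil (0.49, adjusted p = 0.023) and triadimefon (0.51, adjusted p = 0.00963) at 100 uM, the only gene of that list called there without the block. With it, Stard4 was called for both (adjusted p = 0.000235 and adjusted p = 0.000192) and Scap for triadimefon (adjusted p = 0.0232). None of the 5 tested genes of LXR, the receptor that oxysterols activate, and its efflux targets was called at 100 uM in the unblocked limma fit of any triazole. With propiconazole Abca1 changed by -0.01 (adjusted p = 0.994). With triadimefon Lpcat3, a phospholipid acyltransferase, changed by 0.24 and was called with the block (adjusted p = 0.000459).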

How the data were processed

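Total RNA from 35 cultures was labelled with biotin and hybridized to Affymetrix rat arrays, per the labels' protocols. The value table deposited by the authors holds a score per probe set on a log-like scale. Its base, summarisation and normalization are not given in the sources used here. Before normalization the medians of arrays ran from -0.03 to 0.02 and their SDs from 0.646 to 0.941 (the widest being propiconazole 30 uM Rs293). Arrays were quantile normalized over all 31099 probe sets. Of these, 20826 were annotated to 1 gene, 436 to several and 9780 to none. A gene was its probe set with the highest mean among those annotated to it alone, and was tested if above the array median in at least 2 arrays (10490 of 14217 genes). limma 3.58.1 in R 4.3.3 (lmFit, eBayes) was fitted over all 35 arrays with 1 mean per group. Contrasts were 11 against DMSO, 9 between triazoles and 3 slopes on log10 dose, all two-sided, and Benjamini-Hochberg adjustment was made over all genes within a comparison. The fit was tested on simulated data with independent noise on each array and no effect of the Rs code. That test therefore does not bear on the pairing by code. Arrays give no read depth, and their number limits the precision.

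The members, the pathway lists and the tests were chosen with earlier results of these data known. Named genes were the 9 members with all their probe sets, genes of the lists that passed the test, and the 10 genes most correlated with Cyp51. Other listed genes were named after their values were seen. After group means were removed, arrays with the same Rs code in groups compared correlated at r from 0.28 to 0.95 (86 pairs), and pairs of different codes had a median of -0.36. The code therefore pairs the arrays, and the fit with it as a block stands beside the main one. No array was left out of the main fit. Promoter windows came from RefSeq (GRCr8) and were searched by exact letters. Some genes of the pathway lists are not reported here.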

Additional observations from a re-analysis of the deposited data

How the results depend on the processing

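Without the quantile normalization the counts of enzymes called at 100 uM fell from 6, 3 and 2 (propiconazole, myclobutanil, triadimefon) to 0, 0 and 0 on the values as deposited and to 1, 0 and 0 with median centring. In the dose slopes they fell from 4 and 1 (propiconazole, myclobutanil) to 0 and 0 under either. With the widest array also left out, an alternative chosen after seeing the data, the deposited values gave 1, 0 and 0 at 100 uM and 0 and 0 for those slopes. The replicate block gave 6 and 5 for myclobutanil and triadimefon at 100 uM, 3 and 3 for propiconazole and triadimefon at 30 uM, and 7, 6 and 1 for the slopes of propiconazole, myclobutanil and triadimefon. A random block gave 6 and 5, 2 and 3, and 7, 6 and 0. Block and deposited values together, also added after seeing the data, gave 2 for propiconazole at 30 uM and slopes of 1 and 0, and block with median centring 3, 1 and 0. Fitting only the groups compared gave 0 and 0 for myclobutanil and triadimefon at 100 uM and 2 and 0 for the propiconazole and myclobutanil slopes. It also ended the propiconazole calls of Lss (adjusted p = 0.115) and Msmo1 (adjusted p = 0.0647) at 100 uM. Using the mean of a gene's probe sets gave 2 for the myclobutanil slope, and no filter on dim genes gave 1 for triadimefon at 100 uM. Without that filter the 100 uM calls were lost for Lss (adjusted p = 0.0578) and Tm7sf2 (adjusted p = 0.0605) with propiconazole, Cyp51 (adjusted p = 0.0633) with myclobutanil and Sc5d (adjusted p = 0.0550) with triadimefon. Leaving out single arrays or codes, without the block, gave 3 to 5, 0 to 1 and 0 to 2 at 100 uM. For the slopes of propiconazole and myclobutanil it gave 0 to 4 and 0 to 1. For all these alternatives other than the replicate block, the shares of all genes called are not given here. The counts of 0 between triazoles at 100 uM stayed 0 under every alternative run. For the pairs at 10 and 30 uM, only the fits with and without the replicate block are given here.

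Some uncalled changes near 0 turned sign. Dhcr7 with myclobutanil at 100 uM was 0.0174 with median centring and 0.0266 on the deposited values, with or without the block. Nsdhl with triadimefon at 100 uM was 0.0304 and 0.0367, and its triadimefon slope 0.0069 and 0.0135. The same held with the widest array left out of the deposited values. Over fits that left out arrays, Dhcr7 ranged from -0.193 to 0.118 with myclobutanil at 100 uM, from -0.109 to 0.200 for the myclobutanil slope and from -0.206 to 0.0303 with triadimefon at 100 uM. Hsd17b7 ranged from -0.0323 to 0.165 with propiconazole at 100 uM, and its slopes from -0.0269 to 0.211 (propiconazole) and from -0.0510 to 0.150 (triadimefon). Msmo1 ranged from -0.0716 to 0.159 for the triadimefon slope. Nsdhl ranged from -0.163 to 0.0556 with myclobutanil at 100 uM, from -0.143 to 0.0783 for the myclobutanil slope and from -0.125 to 0.000698 with triadimefon at 100 uM. The cause of these shifts was not tested.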
